A study of Ginkgo biloba with 2 samples.

Results

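The miRNA names miR1314, miR1310, miR3704 and miR952 were given to families first described in conifers, and all 4 had reads in leaves of Ginkgo biloba, a gymnosperm that is not a conifer. They were taken by name from the authors' tables of known miRNAs, which list 723 names. The small RNA of mature leaves was sequenced in 1 library labelled female tree and 1 library labelled male tree. The trees were healthy, grew outdoors and were about 30 years old, and the labels name no treatment. The labels leave unsaid whether leaves of 1 tree or of several went into a library, so sex, tree and library cannot be told apart and no p-value between the sexes can be computed.

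A plant miRNA is cut from the paired arms of a hairpin transcript by a Dicer-like enzyme, is loaded onto an ARGONAUTE protein and guides it to transcripts with a nearly complementary site. The length of the small RNA and its first base influence which ARGONAUTE protein takes it up. A few families are shared by nearly all land plants, while others are known from single lineages. miR1314, miR1310 and miR952 were named in pines and miR3704 in spruce. No target of theirs in Ginkgo is textbook knowledge, so no role is assigned to them here.

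The authors listed 1 sequence beside each name and library. These 4 sequences are shown because the levels below are attached to them, in DNA letters, 5′ to 3′, with the seed (bases 2 to 8) in capitals. Those of miR1314 and miR1310 were identical in the female and the male library. Those of miR3704 and miR952 were listed for the female library alone. None of the 4 was set against a hairpin or ribosomal RNA sequence, so whether each comes from a miRNA hairpin was not tested.
miR1314: tCGGCCTTgaatgttaggagag
miR1310: aGGCATCGggggcgtaacgcc
miR3704: gTCTGGGTagtgtagttggaaaaa
miR952: aACGAGGAtccattggag

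The 4 sequences differed in length and seed. miR1314 had 22 bases and began with T (U in RNA), miR1310 had 21 bases and began with A, miR3704 had 24 bases and began with G, and miR952 had 18 bases and began with A. The most frequent length over all names was that of miR1310: 295 of 530 female and 301 of 532 male names had 21 bases. Sequences of 22 bases beginning with T were listed for 20 female and 23 male names. The combination seen in miR3704 was rarer, with 2 female names and 3 male names of 24 bases beginning with G. In the female library these took 0.622% of the known miRNA reads, nearly all of it miR3704. The length of miR952 was shared by 23 female names.

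No other listed name had the seed of miR1314, miR1310, miR3704 or miR952 in a library where that name was listed. The 4 were no closer to one another: each pair was 12 to 16 edits apart and shared at most 5 bases in a row. miR1310 was the richest in G and C, at 71.4%, against a median of 42.9% over all names in both libraries. That share was reached by 5 of 530 female and 3 of 532 male names. The share was 50% for miR1314 and for miR952 and 41.7% for miR3704.

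miR1314 was among the most abundant miRNA names of both libraries, and it was higher in the male one. It had 24824 reads in female leaves, 1882 RPM (reads scaled by the authors to the library total), and 38064 reads in male leaves, 3136 RPM. The exact 95% counting intervals were 1858 to 1905 RPM for female and 3105 to 3168 RPM for male leaves, so they did not overlap. The name ranked 13 of 530 in the female library, where its interval overlapped that of the next name, miR1520 (1880 RPM). It ranked 7 of 532 in the male library, where its interval overlapped neither that of miR1083 above it nor that of miR6118 below it. The log2 ratio of female over male was -0.74, and the reads gave a level 1.67-fold higher in the male library, with an exact 95% interval of 1.64 to 1.69. Its share of the known miRNA reads was 1.01% in female leaves and 1.56% in male leaves.

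miR1310 was present in both libraries at a much lower level and was higher in the female one. It had 415 reads in female leaves (31.5 RPM, interval 28.5 to 34.6) and 197 reads in male leaves (16.2 RPM, interval 14.0 to 18.7). The intervals did not overlap. The level was 1.94-fold higher in the female library (exact 95% interval 1.63 to 2.31), with a log2 ratio of 0.91, so it lay just within 2-fold and its interval spanned 2-fold. It passed 2-fold (log2 ratio 1.14) when values were scaled so that names found in both libraries had a median ratio of 1. It ranked 115 among female and 152 among male names, and in each library its interval overlapped those of the names directly above and below it.

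miR3704 was abundant in the female library and had no read in the male library. It had 15322 female reads, 1161 RPM (interval 1143 to 1180), and ranked 21 of 530, where its interval overlapped neither that of miR860 above it nor that of miR4388 below it. Set against a limit of 3 male reads, 0.247 RPM, the female level was 4699-fold higher (exact low end 3821-fold). Of the 232 names that reached 10 RPM in either library, 2 had a larger log2 excess in female leaves. With no male read, this excess restates the female level of miR3704, through which alone it reached 10 RPM.

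miR952 also had female reads alone. It had 376 reads, 28.5 RPM (interval 25.7 to 31.5), in the female library and ranked 122. Against the same limit of 3 male reads, the female level was 115-fold higher (exact low end 93.3-fold). Within the female library the intervals of miR1310 and miR952 overlapped, so their order was not separated by counting error. The order there was miR1314, miR3704, then miR1310 and miR952, with the steps between the first 3 outside the counting intervals. In the male library miR1314 stood above miR1310, and the other names were at 0.

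**Figure D1:**
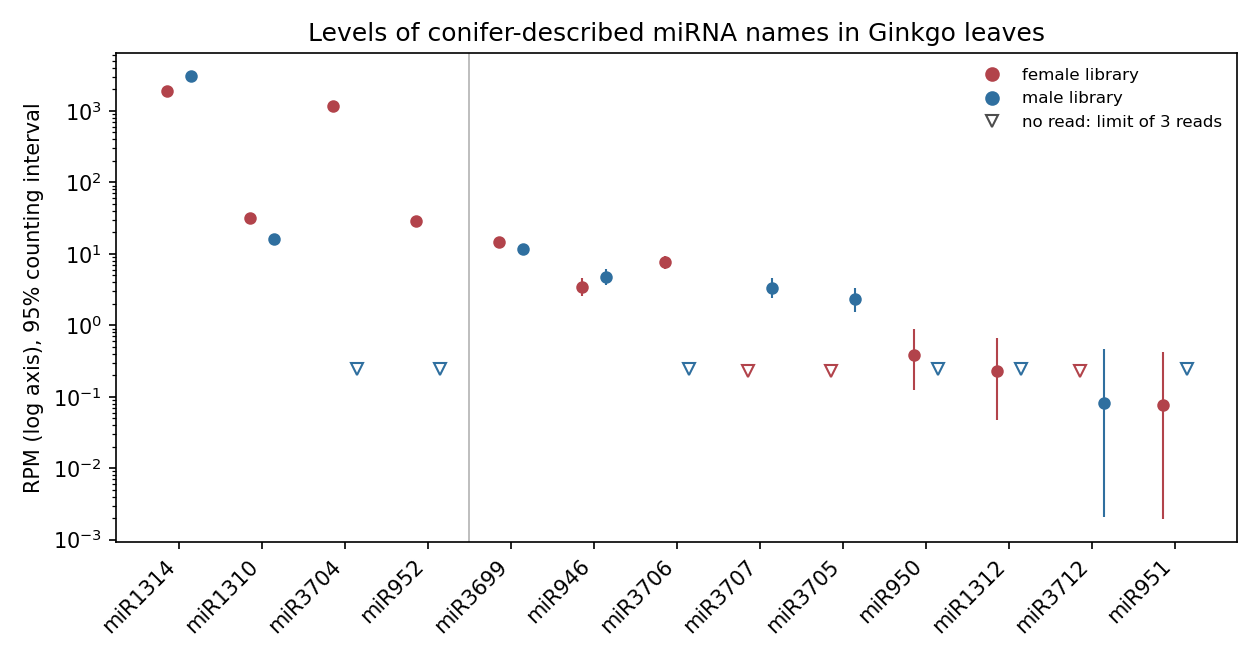
Level of each conifer-described miRNA name in the tables, in RPM on a log axis, in the female and the male library. Points carry exact 95% counting intervals and open triangles mark a name without reads, drawn at the limit of 3 reads. miR1314 stood at 1882 RPM in female and 3136 RPM in male leaves, while miR3704 and miR952 had female reads alone.

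Summed over the 4 names, the libraries were near equal, while their make-up differed. The sum was 40937 reads (3103 RPM) in female leaves, 1.66% of the known miRNA reads, and 38261 reads (3152 RPM) in male leaves, 1.56%. miR1314 supplied 60.6% of that sum in female leaves and 99.5% in male leaves, where miR1310 supplied the rest. In female leaves miR3704 stood at 1161 RPM, while the female minus male difference of miR1314 was -1254 RPM.

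**Figure D2:**
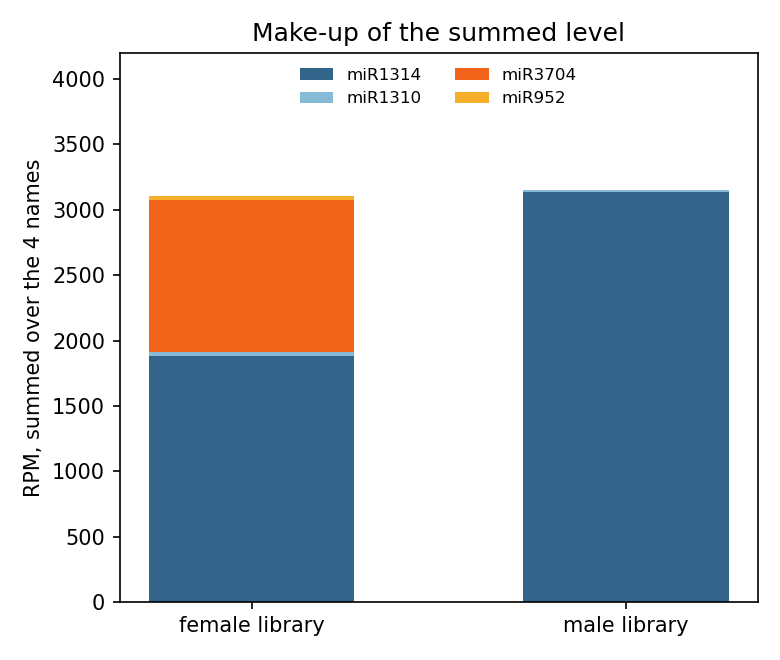
Summed level of miR1314, miR1310, miR3704 and miR952 in each library, in RPM, as stacked bars from 0. The bars are close in height, at 3103 RPM for female and 3152 RPM for male leaves, and miR3704 appears in the female bar alone.

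**Figure D3:**
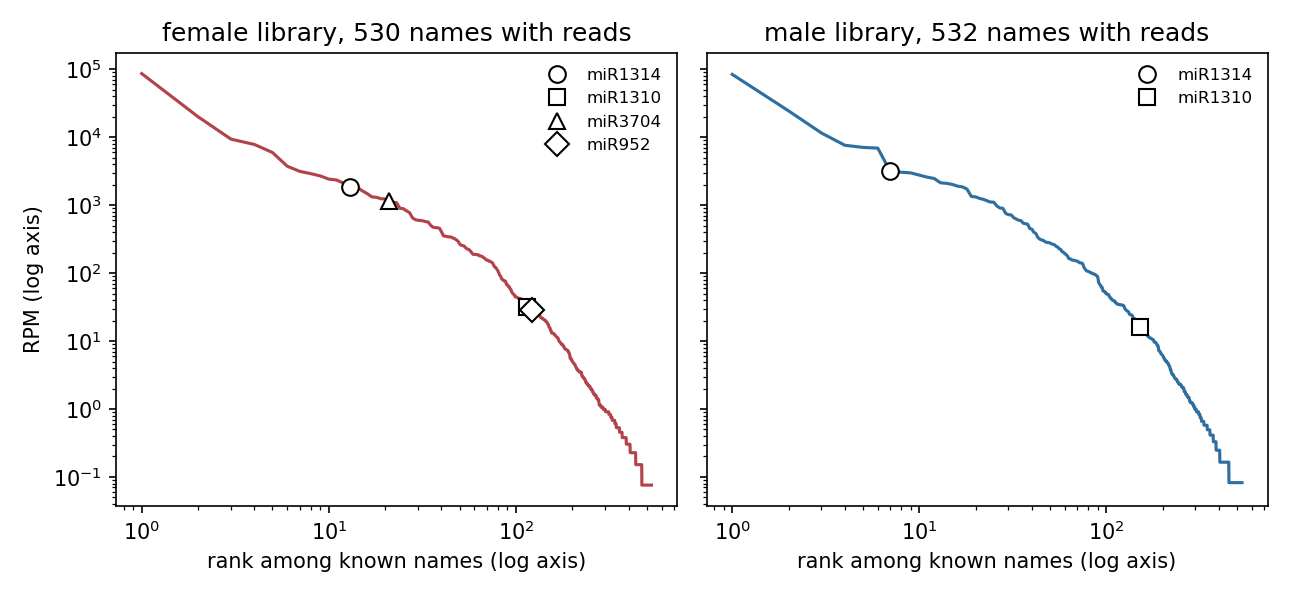
Level in RPM against rank for all known names with reads, female library on the left and male library on the right, on log axes, with the 4 names marked where they have reads. miR1314 ranks 13 among female and 7 among male names, and miR3704 ranks 21 among female names.

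These differences were set against those of all known names. By log2 of RPM plus 1, female leaves were 2-fold or more above male leaves for 68 of the 232 names that reached 10 RPM in either library (29.3%). Female leaves were 2-fold or more below male leaves for 77 names (33.2%), and the remaining 87 differed by less (37.5%). Of the 4 conifer-described names, 2 were 2-fold or more above, none was as far below, and 2 differed by less. miR3704 and miR952 reached 10 RPM through the female library alone, so they had to differ. Names with female reads and no male read made up 34 of the 232 (14.7%), and names with male reads and no female read made up 29 (12.5%). Of the 21 names at least as high as miR3704 in the female library, 3 had no male read, miR3704 among them. Of the 122 names at least as high as miR952 there, 22 had none, miR952 among them. Absence from the other library was therefore also seen in other names of these levels.

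**Figure D4:**
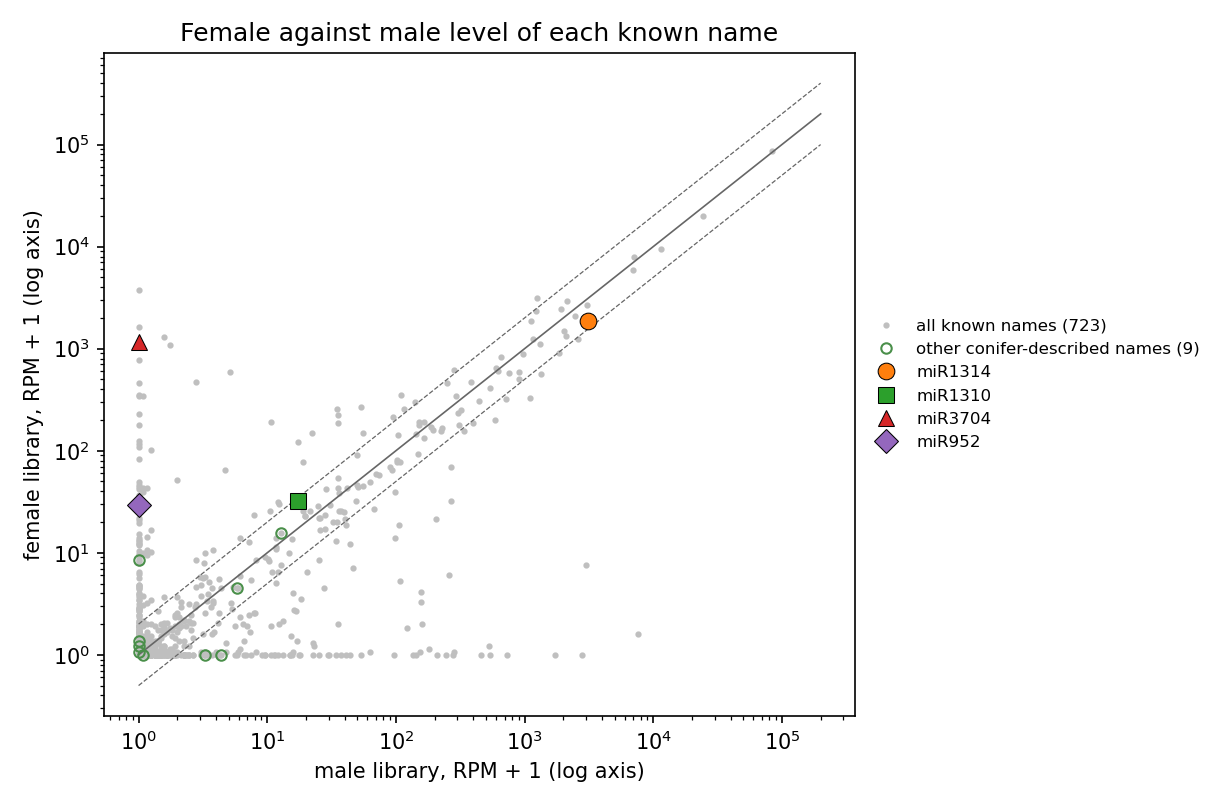
Level of each of the 723 known names in the female library (vertical) against the male library (horizontal), as RPM plus 1 on log axes, with lines of equality and of 2-fold difference. miR1314 lies between equality and the lower 2-fold line, miR1310 just within the upper 2-fold line, and miR3704 and miR952 on the left edge, where other names without male reads also lie.

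The names with the most similar pair of levels were found by the distance between log2 levels over the 2 libraries. For miR1314 they were miR168 (2107 RPM in female and 2477 RPM in male leaves, distance 0.38), whose family regulates an ARGONAUTE transcript in flowering plants, and miR6118 (2697 and 3058 RPM, distance 0.52). For miR1310 they were miR6440 (24.4 and 17.96 RPM, distance 0.38) and miR5021 (24.6 and 20.6 RPM, distance 0.47). The nearest to miR3704 were miR5386 (1646 RPM) and miR5786 (778 RPM), and those nearest to miR952 were miR2606 (28.6 RPM) and miR1211 (30.2 RPM), all with female reads alone. Likeness over 2 libraries describes a pair of levels and nothing more.

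No male name had a listed sequence close to that of miR3704 or miR952. Among the 532 male sequences, the nearest to miR3704 were 8 edits away (miR5301 and miR5632) and the longest shared stretch was 9 bases, with miR5758. The nearest to miR952 was miR5793, 6 edits away with 2 male reads, and the longest shared stretch was 9 bases, with miR824. The predicted miRNAs of these libraries come without sequences in the files used here, so they were not searched. No name in either library came within 5 edits of any of the 4 sequences or shared 16 bases in a row with one. The nearest to miR1314 was miR5634, at 7 edits, and the nearest to miR1310 was miR390, also at 7 edits. Over all 530 female names, the median distance to the nearest sequence of another name was likewise 7 edits.

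On the opposite strand, the listed sequences nearest to the reverse complement of miR3704 were those of miR1448, miR472 and miR482, a group directed at NBS-LRR disease resistance genes in other plants. This relation was picked out after the values were seen, and where it comes from was not tested. The distance to miR482 was 8 edits, equal to the median distance of the 530 female names to their nearest reverse complement. The stretch shared with miR482 was 8 bases, and 419 of the 530 names (79.1%) shared one at least as long with some other name. The male sequence of miR1448 was nearer, at 6 edits, a distance reached by 56 of the 530 names (10.6%). These backgrounds take in names of all lengths, and edits include differences in length. The male miR1448 sequence had 19 bases and miR3704 had 24. Among the 32 female names of 24 bases, only 1, miR3704 itself, came as near as 6 edits to a reverse complement. The name miR2118 belongs to a family directed at the same kind of genes. Its listed sequence was 18 edits away and shared 3 bases in a row. Which arm of the hairpin that sequence comes from was not tested, so its distance cannot be set against those of the other names.

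The levels of these names did not follow 1 pattern beside miR3704, which was found in female leaves alone. miR482 had 7543 female reads (572 RPM) and 9185 male reads (757 RPM), and miR2118 stood at 145 RPM in female and 142 RPM in male leaves. miR1448 had 41 female and 1879 male reads, and miR472 had 13 female and 420 male reads, each with different listed sequences in the 2 libraries.

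The remaining conifer-described names were scarce. Of 35 names of pine and spruce families, 13 were in the tables: the 4 described here and another 9. Of the reads of these 13, the 4 held 99.2% in female leaves and 99.3% in male leaves. The other names held 346 female reads over 6 names and 271 male reads over 5. miR3699 was the only one of these 9 to reach 10 RPM. It had 191 female reads (14.5 RPM) and 143 male reads (11.8 RPM), a female over male ratio of 1.23 whose interval of 0.984 to 1.54 includes equality, and the same listed sequence in both libraries. miR946 had 46 female and 58 male reads (ratio 0.730, interval 0.484 to 1.09), and its listed sequences were offset by 1 base. The intervals of both names held a ratio of 1.
miR946, female: gTGGATCGcagaagggttggt
miR946, male: tGTGGATCgcagaagggttgg

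With seeds in capitals, the offset of miR946 changes the seed although 20 bases in a row are shared. The other 7 names were found in 1 library each. miR3706 had 100 female reads, 30.7-fold higher in female leaves against the limit of 3 reads (exact low end 24.5-fold). miR950 (5 reads), miR1312 (3 reads) and miR951 (1 read) also had female reads alone. miR3707 (41 reads), miR3705 (28 reads) and miR3712 (1 read) had male reads alone. Against the same limit, miR3707 was 14.9-fold (exact low end 11.5-fold) and miR3705 10.1-fold (exact low end 7.72-fold) higher in male leaves. The 5 conifer-described names that reached 10 RPM are the 4 names of the opening and miR3699. The 2 of them at 2-fold or more above male leaves, miR3704 and miR952, passed that level through the female library alone and had to differ, so nothing is read from this count beside the 29.3% above and 33.2% below over all 232 names. Their median log2 ratio of 0.91 (-0.27 over all 232 names) is the value of 1 name, miR1310. Without the 4 names of the opening and with no minimum level, 9 names remained, miR3699 among them. Their median was 0.11 beside -0.11 over all 723 names. The first is the value of miR951, with 1 female read and no male read. The second equals that of miR3712, with 1 male read and no female read. Both medians thus rest on a single read, and no direction is read from them. Of the 9, 1 was 2-fold or more higher in female leaves and 2 in male leaves. Over all 723 names those shares were 16.2% and 18.3%, so counts this small do not set the 9 names apart.

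The authors' target tables list transcripts predicted from the sequences, so equal sequences give equal lists and the lists measure nothing in the leaf. miR1314 had 2 predicted targets, the assembled leaf transcripts Unigene40395 and Unigene53623, the same in both libraries, and no other known name or predicted miRNA listed either. miR1310 had 1, CL2141.Contig2, again the same in both. That transcript was also listed for another 7 known names in the female tables and 3 in the male tables, of which miR5275 and miR5813 did so in both. Among the names with any predicted target, 380 female and 340 male, the median number was 3 in each library. Another 150 female and 192 male names had none.

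miR952, the shortest of the 4 sequences, had the longest list. Its 34 predicted targets in the female library were 20 assembled leaf transcripts and 14 public nucleotide records, and 8 of 380 female names, miR952 included, had as many or more (2.11%). The 20 assembled transcripts were listed for no other name. Another 16 known names shared targets with miR952, at most 6 each, and the 6 shared identifiers were all public records. miR3704 had no predicted target, like 28.3% of the names listed in the female library. The target entries carry no annotation, so no function of these transcripts is given here.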

How the data were processed

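The authors deposited, for each library, a level table whose file name says TPM. Its values are RPM: every value equals the raw read count, deposited in a second table beside 1 sequence per name, divided by 1 library total (13193290 female and 12137619 male reads), and 100% of values above 0 and below 60 RPM were whole reads to within 0.01 read. That table and the counts were used as deposited, with known names at 18.7% of the female and 20.2% of the male reads. The deposited target tables hold the number of predicted targets and their identifiers, another kind of value. No aligner, miRNA database or target predictor is named in the labels or file headers, nor how the 1 sequence was chosen or whether a count covers it alone. No genome, hairpin or ribosomal RNA sequence was set against the listed sequences, so their source was not tested.

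Levels carry exact Poisson 95% intervals, ratios exact conditional binomial (Clopper-Pearson) 95% intervals, and a name at 0 a limit of 3 reads (0.227 RPM female, 0.247 RPM male). For miR3704 and miR952 the exact low ends, 3821-fold and 93.3-fold, lie below the values from that limit. Without molecular identifiers, such intervals and limits hold counting error alone. Log2 ratios use RPM plus 1. With 1 library per sex no test between sexes was run. Sequences were compared by edit distance (edlib 1.3.9.post1) in Python 3.11.15 with SciPy 1.17.1. The fold calls and ratio intervals were tested on simulated reads with set folds and counting error alone. The sequence search was not part of that simulation. Named were the 4 names, every listed conifer-described name in the tables, the 2 nearest in level to each of the 4, names within 5 edits or sharing 16 bases, and those sharing most targets. Of the 16 names sharing targets with miR952, many were tied, so none is named. Other names are the neighbours in rank and sequence, chosen after their values were seen. The members and lists were chosen with earlier results of these data known.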

Additional observations from a re-analysis of the deposited data

How the results depend on the processing

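Alternatives were another pseudocount (0.1 or 10 RPM), scaling by the median ratio over the 339 names with reads in both libraries or by the total of known names, no minimum or a minimum of 100 RPM, and a 1.5-fold threshold. Scaling by the median ratio shifts all log2 ratios by about 0.23 towards the female library. No alternative turned the direction of any of the 4 names. miR1314 had a log2 ratio of -0.51 with scaling by the median ratio and -0.63 by the total of known names, against -0.74. miR1310 passed 2-fold under both scalings (1.14 and 1.02) and had 0.66 with a pseudocount of 10. The log2 ratios of the names at 0 follow the pseudocount: miR3704 had 13.50, 6.87, 10.41 and 10.29 and miR952 had 8.16, 1.94, 5.11 and 4.99 with pseudocounts of 0.1 and 10 and the scalings by median ratio and known total. The median of the conifer-described names was 0.95, 0.66, 1.14 and 1.02 under the same settings. It was 0.28 with no minimum and 4.72 with a minimum of 100 RPM (2 names). Without the 4 names and with no minimum it was 0.11, the value of miR951 (1 female read). With no minimum, 117 of all 723 names were 2-fold or more above male leaves and 132 as far below. With a minimum of 100 RPM, 32 and 34 of 111 names were. Of the 232 names of the main setting, 75 were 1.5-fold or more above and 92 as far below. At 2-fold, scaling by the median ratio gave 73 above and 71 below, and by the total of known names 70 and 74. A pseudocount of 10 gave 63 and 69. Of the 2 conifer-described names at a minimum of 100 RPM, 1 was 2-fold or more higher in female leaves. Under both scalings 3 of 5 were, miR3704 and miR952, which had to differ, among them. With no minimum, 3 were higher in female and 2 in male leaves, and with a 1.5-fold threshold 3 and 1 were. Without the 4 names and with no minimum, a choice made after the data were seen, 1 of 9 was higher in female and 2 in male leaves. Ranked with the predicted miRNAs, miR1314 stood at 15 among female and 9 among male names, miR3704 at 23 and miR952 at 156 in the female library, and miR1310 at 149 and 184. With at least 5 shared targets required, 15 names shared targets with miR952 in place of 16, and none with miR1310. No paired analysis was possible because each sex has 1 library. Depth limits the scarce names: a single read equals 0.0758 RPM for female and 0.0824 RPM for male leaves.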
